A study of Mus musculus with 7 samples.

Results

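Glutathione S-transferases (GSTs) were followed here through 10 genes of 5 classes: Gsta2, Gsta3 and Gsta4 (alpha), Gstm1, Gstm2 and Gstm5 (mu), Gstp1 (pi), Gstt1 and Gstt2 (theta) and Gsto1 (omega). The genes were set by name and not ranked by their levels, though earlier results of these data were known. Their probes were found through RefSeq accessions. They are 10 of the 20 soluble GST symbols with a probe on the array, among 13968 named genes and 34967 gene probes, and each has 1 probe.

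GSTs join the thiol of glutathione to electrophiles, which makes many reactive chemicals and products of lipid oxidation water soluble and ready for export. Carcinogens of the polycyclic aromatic type, such as 7,12-dimethylbenz(a)anthracene (DMBA), are turned by cytochrome P450 enzymes into epoxides that are among such electrophiles. Many GST genes are known targets of NRF2, a factor that binds antioxidant response elements (ARE), and some also of the aryl hydrocarbon receptor (AhR), which binds xenobiotic response elements (XRE).

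Mammary glands of mice were kept in organ culture (MMOC), and RNA of each group was labelled in 1 colour and hybridized to 1 CodeLink Mouse Whole Genome array, which gave 7 arrays. The study compared wild-type (WT) C57 mice with mice lacking estrogen receptor α (αERKO) or β (βERKO), both of these on a mixed C57BL6/129SV background, so that receptor and background cannot be told apart. Each of these 3 arrays held RNA pooled from 5 mice. A further 4 arrays held WT glands cultured 10 or 24 days in the absence of DMBA and BALB/c glands cultured 24 days, either untreated or given vitamin D5 at a dose that the labels do not give.

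The mice were females 4 weeks old, and their thoracic glands were cultured. The protocol attached to every sample describes 9 days of pretreatment with estrogen (1 µg) and progesterone (1 mg), whereas the paper describes 5 days of EGF (25 ng) and progesterone (1 mg) for the arrayed WT, αERKO and βERKO glands. Culture ran for 10 days with insulin and prolactin (each 5 µg/ml) and aldosterone and hydrocortisone (each 1 µg/ml), and the 24-day groups then had 14 days of regression with insulin alone. DMBA was given at 2 µg/ml on Day 3 for 24 h. The titles name DMBA for 1 WT array, called WT + DMBA here, and exclude it for the other WT arrays, but do not mention it for the knockout or BALB/c arrays. By the paper's account the WT, αERKO and βERKO glands on the arrays were all exposed to carcinogen. The methods both list αERKO glands among those taken for arrays and state that they yielded no sample, yet an αERKO array exists. The discussion describes RNA of αERKO glands without preneoplastic lesions, set against WT and βERKO glands that bore them. By that account lesions and receptor cannot be told apart where αERKO is compared with those glands.

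Levels are given as normalized intensity, the background-subtracted intensity over that of the array's median gene probe, so that 1 is the brightness of the median probe. A probe was called good by the scanner software where its spot was clear of background. All 10 probes were good on every array except Gsta2 on the αERKO array. The median gene probe had an intensity between 39.1 and 53.0 over a local background between 80 and 83, and between 68.4% and 74.2% of gene probes were good. Without replicate arrays no test was possible. Each ratio was set beside the SD with which probes for 1 accession differed in log2 ratio on that pair of arrays. It covers the spread between probes on those arrays. Error shared by the probes of an array, and that of mice or cultures, is not in it. This SD lay between 0.19 and 0.70 on the log2 scale over all pairs of arrays.

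The targeted genes were checked first. The Esr1 probe was good on only 2 of the 7 arrays, WT + DMBA (normalized intensity 0.494) and BALB/c with vitamin D5 (0.600). It was near background on both knockout arrays (0.0737 on αERKO, 0.304 on the array titled as the Esr2 knockout), but also on the WT arrays without DMBA and on BALB/c (0.00143 to 0.150), and so does not check the αERKO label. The Esr2 probe was good on 2 of the 7 arrays. It was brightest, at 1.83, on the array titled as its knockout, at least 6.69-fold over WT + DMBA, which is at odds with that title. No probe sequence was at hand, so whether the probe lies in the disrupted part of the gene is unknown, and the title could not be checked. The array is therefore called the array labelled βERKO throughout.

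Mammary epithelium was present on every array: of 11 luminal markers with a probe (keratins, Epcam, Cdh1, Elf5 and milk proteins), between 9 and 11 were good, with Csn2 or Lalba as the absent ones. The αERKO array stood apart. Its 10 skeletal muscle markers summed to a normalized intensity of 2350.2 against 8.92 to 52.6 on the other 6 arrays, and its luminal markers to 601, the lowest of the 7 arrays. In pooled tissue, fewer cells of a type and less RNA per cell cannot be told apart.

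Promoters of 8 members, as 250 bases before to 50 bases after each RefSeq start (GRCm38.p6), were searched on both strands for the ARE core TGACNNNGC, the XRE core GCGTG and the AP-1 motif TGANTCA, where N is any base. Among 32851 mouse promoters of this length, 12.4%, 32.4% and 7.81% hold them. An ARE core lay in the promoters of 2 members, Gsta3 and Gstm5, an XRE core in those of 4 (Gsta2, Gstm1, Gstm5 and Gstp1) and AP-1 in those of 2 (Gstm5 and Gstp1). The sequences shown are those of Gsta2, Gstt1 and Gsto1, which were over 2-fold apart with DMBA, those with an ARE core, and Gsta1, the neighbour in sequence of Gsta2. No promoter was at hand for Gsta4, which was also over 2-fold apart with DMBA, nor for Gstt2. Capitals mark the motifs, and a promoter with no capitals held none of the 3 within these bases. Sites farther from the start were not searched.

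Gsta2, chr9:78347096-78347395, minus strand: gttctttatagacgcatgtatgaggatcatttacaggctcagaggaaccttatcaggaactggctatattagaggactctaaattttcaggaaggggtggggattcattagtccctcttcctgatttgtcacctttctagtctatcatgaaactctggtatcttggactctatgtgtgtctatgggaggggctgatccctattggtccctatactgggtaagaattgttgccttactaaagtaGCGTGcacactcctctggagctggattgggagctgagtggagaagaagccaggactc
Gsta1, chr9:78230419-78230718, plus strand: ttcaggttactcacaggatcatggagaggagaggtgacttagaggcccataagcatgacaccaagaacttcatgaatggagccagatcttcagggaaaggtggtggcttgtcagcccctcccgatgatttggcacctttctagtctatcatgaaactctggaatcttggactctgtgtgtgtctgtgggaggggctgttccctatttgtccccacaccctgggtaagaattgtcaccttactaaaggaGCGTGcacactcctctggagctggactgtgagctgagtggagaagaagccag
Gsta3, chr1:21240335-21240634, plus strand: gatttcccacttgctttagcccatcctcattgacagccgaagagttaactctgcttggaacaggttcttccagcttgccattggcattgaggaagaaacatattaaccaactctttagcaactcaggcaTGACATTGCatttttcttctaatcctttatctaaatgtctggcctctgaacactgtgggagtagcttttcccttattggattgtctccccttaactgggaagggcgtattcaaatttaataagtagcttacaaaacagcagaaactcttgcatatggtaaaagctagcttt
Gstm5, chr3:107895604-107895903, plus strand: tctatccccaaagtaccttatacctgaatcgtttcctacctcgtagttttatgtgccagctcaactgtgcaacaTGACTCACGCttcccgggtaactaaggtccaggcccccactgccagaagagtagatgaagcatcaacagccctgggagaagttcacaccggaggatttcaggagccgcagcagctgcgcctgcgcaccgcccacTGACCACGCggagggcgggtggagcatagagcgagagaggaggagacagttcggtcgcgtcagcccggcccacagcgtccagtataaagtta
Gstt1, chr10:75797682-75797981, minus strand: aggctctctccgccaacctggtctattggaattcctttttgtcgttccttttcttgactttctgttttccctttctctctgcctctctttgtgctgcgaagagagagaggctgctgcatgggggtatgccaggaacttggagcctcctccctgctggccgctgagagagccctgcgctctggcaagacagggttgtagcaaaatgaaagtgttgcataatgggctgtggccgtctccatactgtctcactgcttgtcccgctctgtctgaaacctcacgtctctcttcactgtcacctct
Gsto1, chr19:47854723-47855022, plus strand: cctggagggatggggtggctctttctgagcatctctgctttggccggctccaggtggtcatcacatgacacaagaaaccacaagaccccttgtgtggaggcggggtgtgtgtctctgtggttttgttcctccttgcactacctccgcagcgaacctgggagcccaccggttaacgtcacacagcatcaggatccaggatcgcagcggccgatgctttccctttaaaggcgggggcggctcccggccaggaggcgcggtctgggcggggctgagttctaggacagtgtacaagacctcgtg

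The XRE core began 7 bases before the start in Gsta2 and 2 bases before it in Gsta1. The promoters of these 2 genes were identical at 238 of 284 aligned bases (83.8%), with 32 gap positions. The ARE core began 121 bases before the start in Gsta3 and 42 bases before it in Gstm5. In Gstm5 both stretches of capitals hold an XRE core on the minus strand, overlapping the AP-1 motif in the first and the ARE core in the second. A match of letters is not a bound site.

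Among the alpha class, Gsta2, whose product also reduces lipid hydroperoxides, had the widest range of all members. Its normalized intensity was 285 in WT glands at 10 days, 162 in WT glands at 24 days, 2.75 in WT + DMBA, 105 on the array labelled βERKO, 314 in BALB/c and 275 in BALB/c with vitamin D5. On the αERKO array it was 0.394 and near background. The WT + DMBA and αERKO arrays were thus far below the other 5. The top 3 levels (BALB/c, WT at 10 days, BALB/c with vitamin D5) lay within the SD between probes of each other, and all later neighbours in the order were farther apart than it.

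Gsta1, an alpha-class GST that is no member, showed the same arrays low, with a normalized intensity of 1.30 on the αERKO array and 3.44 in WT + DMBA against 99.3 to 408 elsewhere. The 2 genes are near-identical copies on 1 chromosome, and no probe sequence was at hand, so signal shared between their probes cannot be told apart from change of both.

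Gsta4, whose product is the main conjugating enzyme for 4-hydroxynonenal from lipid peroxidation, had a normalized intensity of 249.9 and 152 in WT glands at 10 and 24 days, 31.5 in WT + DMBA and 26.2 in αERKO. It was 128 on the array labelled βERKO, 262 in BALB/c and 213 in BALB/c with vitamin D5. The order of the arrays was the same as for Gsta2, with WT + DMBA and αERKO within the SD of each other.

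Gsta3, whose mouse product detoxifies aflatoxin epoxide, varied less. Its normalized intensity was 61.6 and 50.3 in WT glands at 10 and 24 days, 33.0 in WT + DMBA, 20.9 in αERKO glands, 77.8 on the array labelled βERKO, 59.7 in BALB/c and 57.9 in BALB/c with vitamin D5. The same 2 arrays were lowest, and the 5 others formed a series in which no neighbours differed by more than the SD.

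In the mu class, the 3 members differed among themselves. Gstm1, an abundant mu-class enzyme of liver, had a normalized intensity of 278 and 223 in WT glands at 10 and 24 days, 122 in WT + DMBA, 110.2 in αERKO glands, 304 on the array labelled βERKO, 283 in BALB/c and 249 in BALB/c with vitamin D5. WT + DMBA and αERKO were again lowest and lay within the SD of each other. Gstm2 ranged from 17.7 in WT glands at 24 days to 28.6 on the array labelled βERKO, and Gstm5 from 20.5 in BALB/c to 28.7 in BALB/c with vitamin D5. Neither Gstm2 nor Gstm5 had its lowest level on the αERKO or WT + DMBA array, and their whole ranges were 1.62-fold and 1.40-fold. Mu-class genes lie in 1 cluster with similar sequences, so their probes may share signal.

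Gstp1, the pi-class enzyme that is often raised in tumours, had a normalized intensity of 571 and 603 in WT glands at 10 and 24 days, 429 in WT + DMBA, 319 in αERKO glands, 577 on the array labelled βERKO, 561 in BALB/c and 524 in BALB/c with vitamin D5. The lowest levels were again those of αERKO and WT + DMBA, but no neighbours in the order differed by more than the SD. The gene has a near-identical copy, Gstp2, which had no probe of its own here.

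In the theta class, Gstt1 was highest where Gsta2 was lowest. Its product acts on small halogenated compounds, and it had a normalized intensity of 30.6 on the αERKO array. It was 5.21 in WT + DMBA, 4.76 on the array labelled βERKO and 4.61 in BALB/c with vitamin D5. It was 2.72 and 2.42 in WT glands at 10 and 24 days and 2.46 in BALB/c. The αERKO array alone stood 2.56 on the log2 scale above the next, and the middle 3 and the low 3 arrays each lay within the SD of their neighbours. Gstt2 was dim, from 0.708 in WT + DMBA to 1.13 on the αERKO array, and no neighbours differed by more than the SD.

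Gsto1, the omega-class enzyme that acts in thiol exchange and reduction of dehydroascorbate, had a normalized intensity of 85.4 and 75.9 in WT glands at 10 and 24 days, 28.2 in WT + DMBA, 26.7 in αERKO glands, 70.4 on the array labelled βERKO, 72.3 in BALB/c and 93.0 in BALB/c with vitamin D5. WT + DMBA and αERKO lay within the SD of each other and below the 5 others, which formed a series without a gap over the SD. Its neighbour on the chromosome, Gsto2, had 15.7 in WT + DMBA and 14.9 on the αERKO array against 31.2 to 48.4 elsewhere.

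**Figure D1:**
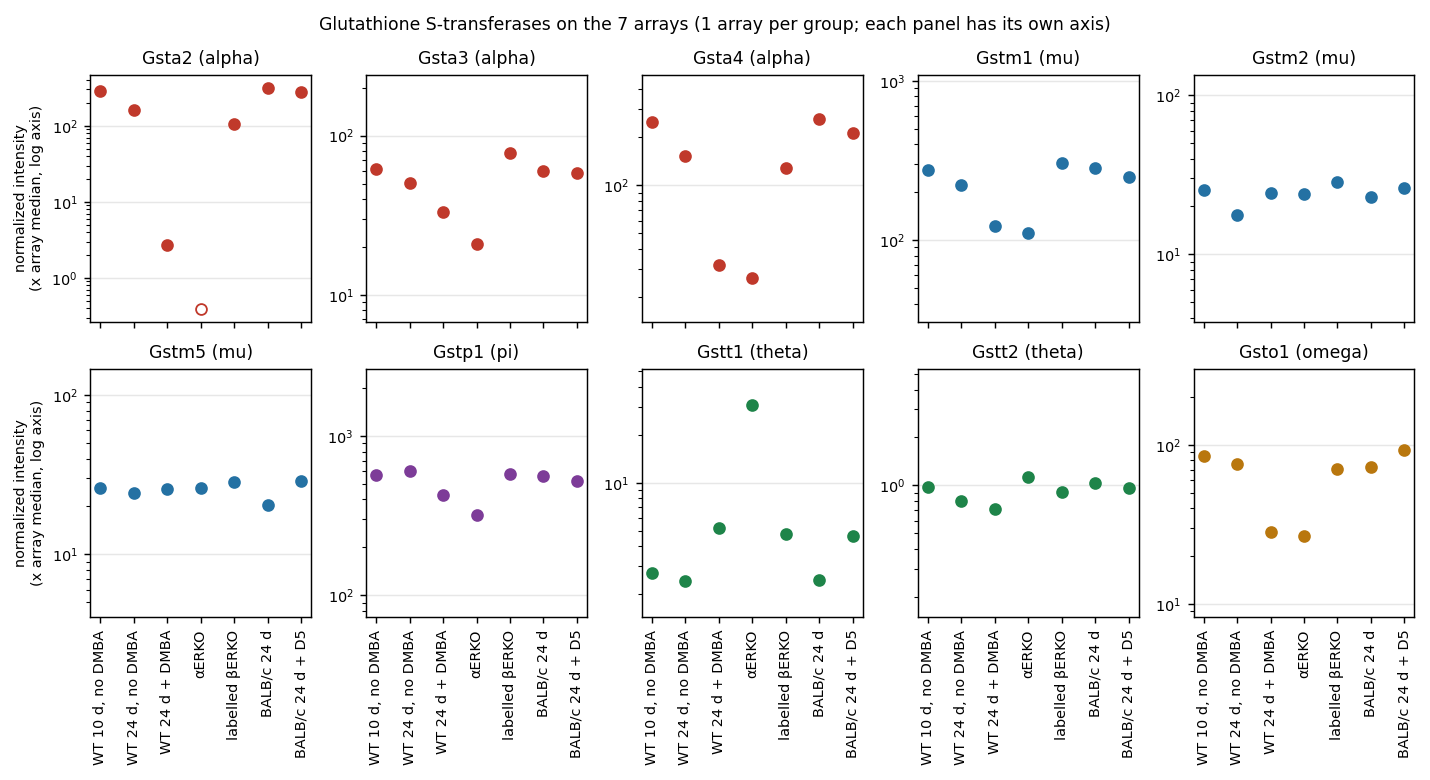
Normalized intensity of the 10 GSTs (multiples of the array median, log axis, each panel on its own scale) on the 7 arrays, 1 point per array and an open point where the probe was near background. Gsta2 spans 0.394 to 314, Gsta4, Gstm1 and Gsto1 are low on the WT + DMBA and αERKO arrays, Gstt1 is high at 30.6 on the αERKO array, and Gstm2, Gstm5 and Gstt2 vary little.

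Once the levels had been seen, the members whose 2 lowest levels of the 7 fell on the αERKO and WT + DMBA arrays were counted. There were 6 of 10 (Gsta2, Gsta3, Gsta4, Gstm1, Gstp1 and Gsto1), and 4 of the 10 other soluble GSTs. Over all probes good on at least 1 array, 15.3% had this order, and over those good on all 7 arrays 19.9%. The count was made because of the pattern and is a description only.

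The question of what DMBA changes in WT glands was addressed by WT + DMBA over WT without DMBA, both at 24 days. By the paper's account WT + DMBA had EGF pretreatment, while for WT without DMBA only the protocol's estrogen pretreatment is given. A difference in pretreatment therefore cannot be told apart from DMBA. The same limit holds where the knockout arrays are set against WT without DMBA. Gsta2 was 58.8-fold lower with DMBA, at a log2 ratio of -5.88, and Gsta4 (log2 ratio -2.27) and Gsto1 (-1.43) were also over 2-fold lower, while Gstt1 was over 2-fold higher at 1.11. The SD between probes for 1 accession was 0.31 (547 pairs), below each of these. The other 6 were within 2-fold, among them Gstm1 at -0.87, Gsta3 at -0.61 and Gstp1 at -0.49, beyond that SD, as was Gstm2 at 0.46. Gstm5 (0.08) and Gstt2 (-0.18) were inside it.

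With DMBA, then, 1 of 10 members lay above the 2-fold line and 3 below it, against 10.1% and 8.46% of all probes, or 18.6% either way and 11.8% among probes good on both arrays. The median log2 ratio of members was -0.55, and that of all probes was -0.13. DMBA was given on Day 3 and RNA taken at 24 days, so the levels are those long after exposure. Cell type markers differed in the same comparison: 9 of 11 adipocyte, 8 of 8 fibroblast, 7 of 7 endothelial and 6 of 7 macrophage markers were over 2-fold higher and none lower, and 4 of 11 luminal markers were lower and none higher. The summed fibroblast level was 14.8 without DMBA, where Col1a1, Col1a2 and Thy1 were near background, and 218 with it, and the summed luminal level was 1305 and 869. The part of cell type markers in the GST values was not tested.

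**Figure D2:**
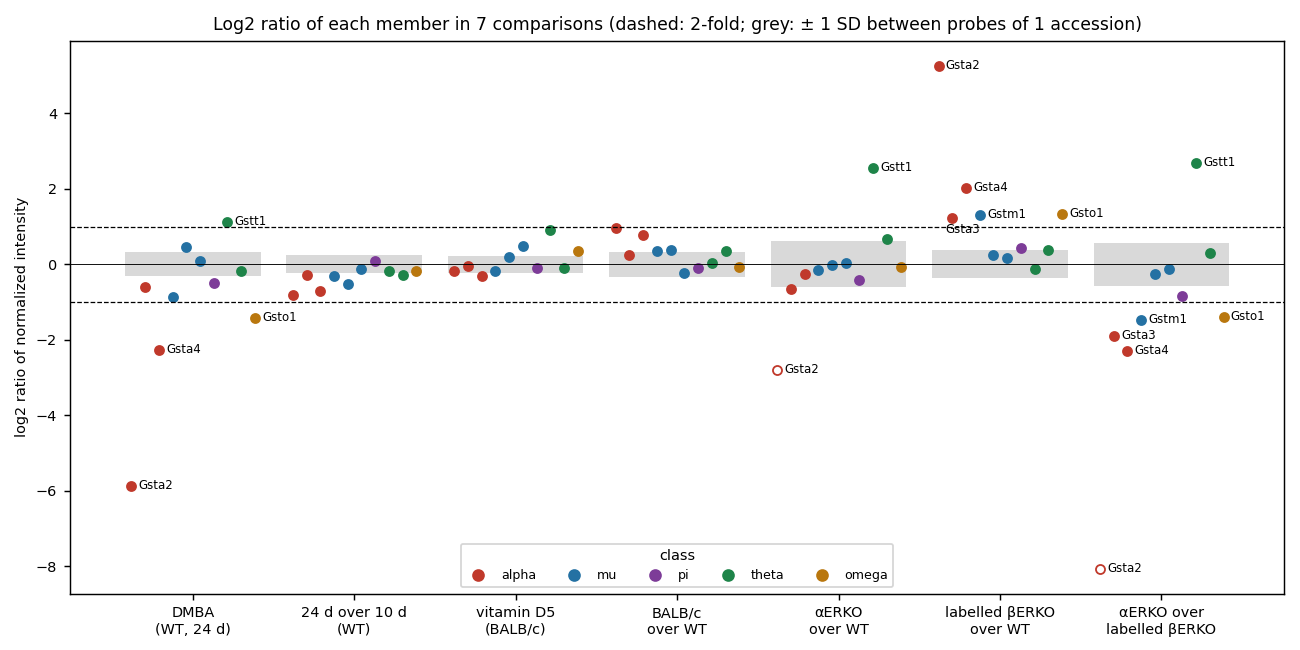
Log2 ratio of normalized intensity for each of the 10 members in 7 comparisons, coloured by class, with dashed lines at 2-fold, grey bands for 1 SD between probes for 1 accession, and open points where the probe was near background on 1 array. Members over 2-fold carry their names: Gsta2 reaches -5.88 with DMBA and 5.26 on the array labelled βERKO over WT + DMBA, and none passes 2-fold for culture time, vitamin D5 or strain.

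Culture time was examined as WT without DMBA at 24 over 10 days, that is after against before regression. No member was over 2-fold apart, against 12.4% of all probes. Of the 10 members, 9 were lower at 24 days, with a median log2 ratio of -0.29 against 0.09 over all probes. Gsta2 (-0.82), Gsta4 (-0.72) and Gstm2 (-0.52) had the widest ratios, over an SD of 0.23 (536 pairs). Adipocyte markers summed to 307 at 10 days and 1069 at 24 days, with 10 of 11 over 2-fold higher. Endothelial and macrophage markers were each higher in 3 of 7 and lower in none. Basal markers were lower in 4 of 7 and higher in 2, and luminal markers lower in 1 of 11 and higher in 2. The part of these markers in the GST ratios was not tested.

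Vitamin D5, a vitamin D analog, was examined in BALB/c glands. No member was over 2-fold apart, against 12.2% of all probes, and the median log2 ratio of members was -0.07 beside 0.09 for all probes. Gstt1 came nearest to 2-fold, with a log2 ratio of 0.91, and Gstm5 (0.49) and Gsto1 (0.36) were also higher by more than the SD of 0.23 (548 pairs). Gsta4, at -0.30, was lower by more than it. The alpha-class Gsta2 (-0.19) and Gsta3 (-0.04) lay inside the SD. With vitamin D5, 5 of 11 luminal and 3 of 8 fibroblast markers were over 2-fold higher and none of these lower. Skeletal muscle markers were higher in 2 of 9 and lower in 3. Among all named genes, 4.41% were higher and 4.39% lower. The part of these markers was not tested.

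Strain was compared as BALB/c over WT without DMBA, both at 24 days, though the BALB/c title does not say whether DMBA was given. No member was over 2-fold apart, against 18.5% of all probes. The median log2 ratio of members was 0.30 and that of all probes -0.15. Gsta2 at 0.95 and Gsta4 at 0.78 were farthest from 0, over an SD of 0.33 (542 pairs), and Gsta2 passed 2-fold under 4 other ways of scaling or background correction, at 1.04 to 1.30. Adipocyte markers differed too, with 10 of 11 over 2-fold lower in BALB/c and none higher. Macrophage markers were lower in 5 of 7 and higher in none. Endothelial markers were lower in 4 of 8 and higher in 1, and luminal markers lower in 4 of 11 and higher in 2. Basal and fibroblast markers were each higher in 2 of 7 and lower in none. The part of these markers was not tested. The DMBA, culture time and strain comparisons share the WT 24-day array without DMBA, so their ratios are not independent.

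αERKO glands were set against WT + DMBA, the study's own comparison. Gstt1 was over 2-fold higher on the αERKO array at a log2 ratio of 2.56. Gsta2 was 6.99-fold lower by local background subtraction, from a reading near background, with a log2 ratio of -1.32 after normexp. Normexp is a background correction that keeps dim values above 0. The other 8 lay within 2-fold, from -0.66 for Gsta3 to 0.68 for Gstt2, and among these 8 only Gsta3 and Gstt2 exceeded the SD of 0.61 (540 pairs). The counts, 1 of 10 higher and 1 of 10 lower, stood against 12% and 14.1% of all probes, 26.1% either way, and 17.7% among probes good on both arrays, where 9 members counted. The median log2 ratio was -0.11 for members and -0.08 for all probes.

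Against the WT 24-day array without DMBA, a comparison added after the data were seen because the titles of the knockout arrays do not name DMBA, 5 members were lower by over 2-fold in αERKO glands and 1 was higher. Gsta2 was 411-fold lower by its reading near background (log2 ratio -6.65 after normexp). Gsta4 had a log2 ratio of -2.54, Gsto1 -1.51, Gsta3 -1.27 and Gstm1 -1.02, and Gstt1 had 3.66. Of all probes, 36.3% were over 2-fold apart in that comparison, and the SD was 0.70 (518 pairs). Beside all these ratios, 10 of 10 skeletal muscle markers exceeded their WT + DMBA level by over 2-fold in αERKO glands, where all 10 were good. In WT + DMBA, Myh4, Tnnc2, Tnnt3, Ckm and Pvalb were near background. Of 11 luminal markers, 5 were over 2-fold lower than in WT + DMBA and 1 higher. Of 7 basal markers 5 were lower than in WT + DMBA and none higher. Also against WT + DMBA, 6 of 8 lymphocyte, 4 of 8 fibroblast and 2 of 2 erythroid markers were over 2-fold higher and none of these lower. Macrophage markers were lower in 6 of 7 and higher in 1. Adipocyte markers were higher in 4 of 11 and lower in 1, and endothelial markers higher in 2 of 7 and lower in 2. Markers were not counted against WT without DMBA at 24 days. Summed luminal levels were 601 on the αERKO array against 1305 there, and summed basal levels 140.1 against 289.7. Basal markers went both ways: Krt14 was 6.81 on αERKO against 89.2, and Cnn1 was 32.7 against 7.92. How far the mixture of tissues set the GST ratios was not tested.

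On the array labelled βERKO, the 3 alpha-class members, Gstm1 of the mu class and Gsto1 were above WT + DMBA. Gsta2 was 38.2-fold higher, at a log2 ratio of 5.26 (4.66 after normexp background correction), and Gsta4 (2.02), Gstm1 (1.32), Gsto1 (1.32) and Gsta3 (1.24) were over 2-fold higher, all beyond the SD of 0.38 (562 pairs). Gstp1, at 0.43, was also beyond it, and Gstt2 (0.36), Gstm2 (0.24), Gstm5 (0.16) and Gstt1 (-0.13) were not. Thus 5 of 10 members were higher and none lower by 2-fold, against 7.54% and 8.68% of all probes, 16.2% either way and 8.4% among probes good on both arrays. The median log2 ratio of members was 0.83, beside 0.09 for all probes.

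This rested on the comparator. Against WT without DMBA at 24 days, also added after the data were seen, none of the 10 members on the array labelled βERKO was over 2-fold apart, where 15.1% of all probes were. Gsta2 had a log2 ratio of -0.62, Gsta4 -0.25, Gsto1 -0.11, Gstm1 0.45, Gsta3 0.63 and Gstt1 0.98, over an SD of 0.35 (542 pairs). The levels of Gsta2, Gsta4, Gstm1 and Gsto1 on this array were thus nearer to those of WT glands without DMBA than with it, as were those of Gsta3 and Gstp1. Those of Gstm2 (0.70 from WT without DMBA, 0.24 from WT + DMBA) and Gstt1 (0.98 and -0.13) were nearer to WT + DMBA. For Gstt2 (0.19 and 0.36) and Gstm5 (0.24 and 0.16) both distances lay inside the SDs of 0.35 and 0.38. Which WT array was nearer is not resolved for these genes. The paper describes the arrayed βERKO glands as bearing lesions induced by DMBA. The title does not name DMBA and is at odds with the signal of the Esr2 probe, whose position in the gene is unknown. Cell type markers differed as well: 6 of 7 endothelial, 5 of 7 macrophage, 5 of 8 fibroblast and 4 of 11 adipocyte markers were over 2-fold lower on this array than in WT + DMBA and none of these higher, and 6 of 10 skeletal muscle markers were higher and none lower. Their part was not tested.

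Between the knockout arrays, αERKO over the array labelled βERKO, 5 members were over 2-fold lower and 1 was higher. Gsta2 was 267-fold lower by local background subtraction, from a reading near background, with a log2 ratio of -5.98 after normexp. Gsta4 (log2 ratio -2.29), Gsta3 (-1.90), Gstm1 (-1.47) and Gsto1 (-1.40) followed, and Gstt1 was higher at 2.69. Gstp1, at -0.85, passed the SD of 0.57 (532 pairs) but not 2-fold. Of all probes, 16.7% were over 2-fold lower, 13.8% higher, 30.6% either way and 22.2% either way among those good on both arrays. Beside this, 10 of 10 skeletal muscle, 8 of 8 fibroblast, 6 of 8 lymphocyte, 6 of 11 adipocyte, 4 of 7 endothelial and 2 of 2 erythroid markers were over 2-fold higher on αERKO and none of these lower. Luminal markers were lower in 6 of 11 and higher in none, basal markers lower in 4 of 7 and higher in 1, and macrophage markers higher in 3 of 7 and lower in 1. Their part was not tested. The 3 comparisons among αERKO, the array labelled βERKO and WT + DMBA share arrays in pairs, and WT + DMBA also enters the DMBA comparison, so 1 low level of a gene on WT + DMBA shapes 3 ratios at once.

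Among the other soluble GSTs with DMBA, Gsta1 had a log2 ratio of -5.63, Gsto2 -1.42 and Gstp3 -1.11, and Gstz1, an enzyme of tyrosine breakdown, was higher at 1.47. On the array labelled βERKO over WT + DMBA, Gsta1 had 4.85, Gstm3 1.31, Gstm6 1.26, Gsto2 1.18 and Gstp3 1.09. On the αERKO array over WT + DMBA, Gstm6 (1.52) and Gstk1 (1.17), the latter an enzyme of mitochondria and peroxisomes, were higher and Gsta1 (-1.40) was lower. Hpgds, a prostaglandin D synthase of the family, was near background on the αERKO array. Of 11 on the list that passed the filter, Gstm4, Gstt3 and Gstt4 were within 2-fold in all 3 of these comparisons.

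Gstz1 and Gstk1 were highest on the αERKO array, as Gstt1 was. Gstz1 had a normalized intensity of 146 there, 74.6 in WT + DMBA, 44.1 on the array labelled βERKO and 26.9 in WT glands at 24 days without DMBA. It was 9.18 in WT glands at 10 days, 6.42 in BALB/c and 8.64 in BALB/c with vitamin D5. Gstk1 ran from 2.88 in WT glands at 10 days to 17.1 on the αERKO array. The summed adipocyte markers were also highest on the αERKO array at 3746, with 1983 in WT + DMBA, 1673 on the array labelled βERKO and 179 to 1069 on the other 4. So were the summed markers of skeletal muscle (2350.2), erythroid cells (583), fibroblasts (548) and lymphocytes (61.3). The part of any of these markers in the GST levels was not tested.

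**Figure D3:**
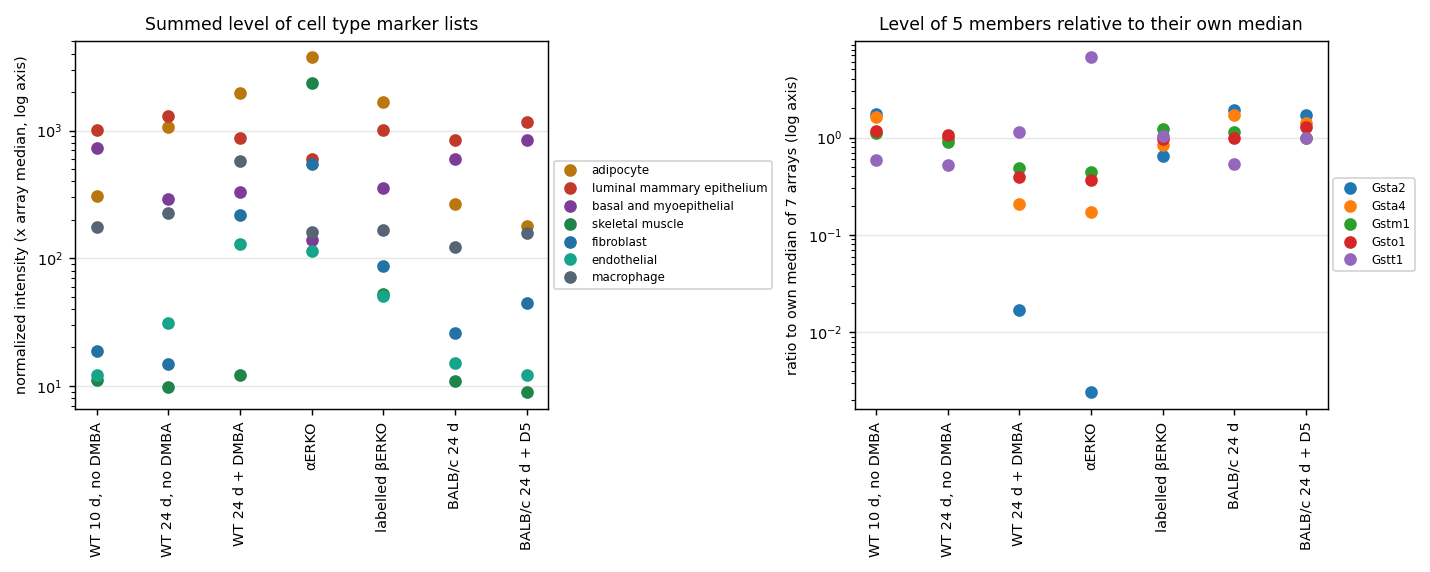
Left, summed normalized intensity of 7 cell type marker lists on each array; right, level of 5 members relative to their own median over the 7 arrays; both on log axes with 1 point per array. Skeletal muscle markers reach 2350.2 on the αERKO array alone, where Gsta2 is lowest and Gstt1 highest.

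The wider glutathione pathway was described from lists of genes, by the share over 2-fold. The genes for glutathione synthesis and recycling were lower with DMBA in 6 of 9, with none higher, at a median log2 ratio of -1.13. Gclc, the catalytic subunit of glutamate-cysteine ligase, had a log2 ratio of -2.46, Slc3a2, a subunit of the cystine transporter, -1.65, and Gclm, the modifier subunit of the ligase, -1.47. Among all named genes, 11.6% were over 2-fold higher and 7.79% lower with DMBA, at a median of -0.15.

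On the αERKO array over WT + DMBA, 5 of these 9 were lower and none higher, with Gclm at -3.29, Gsr, glutathione reductase, at -2.09 and Slc3a2 at -2.02. All named genes had 10.3% higher and 15.3% lower. For the array labelled βERKO over WT + DMBA, 5 of 9 were higher and none lower, with Chac1, which degrades glutathione, at 2.72, Gclc at 2.32 and Ggct at 1.59, against 6.88% and 7.52% of named genes. Between the knockout arrays, αERKO had 7 of 9 lower and none higher, against 12.2% higher and 20.0% lower of named genes.

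NRF2 regulators and targets outside the GST family also differed on these arrays. With DMBA, 5 of 11 were lower and none higher, led by Osgin1 (log2 ratio -2.46), Srxn1, sulfiredoxin (-2.41), and Hmox1, heme oxygenase (-1.81). On the αERKO array over WT + DMBA, 7 of 11 were lower and none higher, with Hmox1 at -4.70, Nqo1, a quinone reductase, at -3.88 and Srxn1 at -2.99. On the array labelled βERKO over WT + DMBA, 5 of 11 were higher and none lower, with Srxn1 at 2.23, Nqo1 at 2.15 and Osgin1 at 1.73.

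The AhR list, with the enzymes that activate DMBA, had 3 of 10 lower and none higher with DMBA, namely Aldh3a1 (-1.54), Ephx1, microsomal epoxide hydrolase (-1.50), and Ahr itself (-1.16). It had 2 of 10 lower on the αERKO array over WT + DMBA, Cyp1b1 (-2.93) and Ephx1 (-2.17), a share near the 15.3% of all named genes lower there. On the array labelled βERKO over WT + DMBA 4 of 10 were higher and none lower, led by Cyp1a1 (2.86), Aldh3a1 (2.24) and Cyp1b1 (1.92). With culture time, where no member was over 2-fold apart, 4 of 10 on this list were over 2-fold lower at 24 days, among them Cyp1a1 (-2.06), Cyp1b1 (-1.83) and Aldh3a1 (-1.62), and none higher. Of all named genes, 4.34% were lower and 5.47% higher with culture time.

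Glutathione peroxidases were mixed. Gpx2, an epithelial glutathione peroxidase, had log2 ratios of -2.48 with DMBA, -5.34 for αERKO over WT + DMBA and 1.80 for the array labelled βERKO over WT + DMBA, while Gpx7 (1.77) and Gpx3, the plasma form (1.54), were higher with DMBA. Of 13 genes for conjugate export and mercapturate formation, 4 were higher and 1 lower with DMBA, with Ggt1 at 1.51, Dpep2 at 1.18 and Abcc1, which exports glutathione conjugates, at -1.50. Of 5 microsomal GSTs and relatives, the leukotriene-pathway genes Alox5ap (1.64) and Ltc4s (1.44) were higher with DMBA and none was lower.

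**Figure D4:**
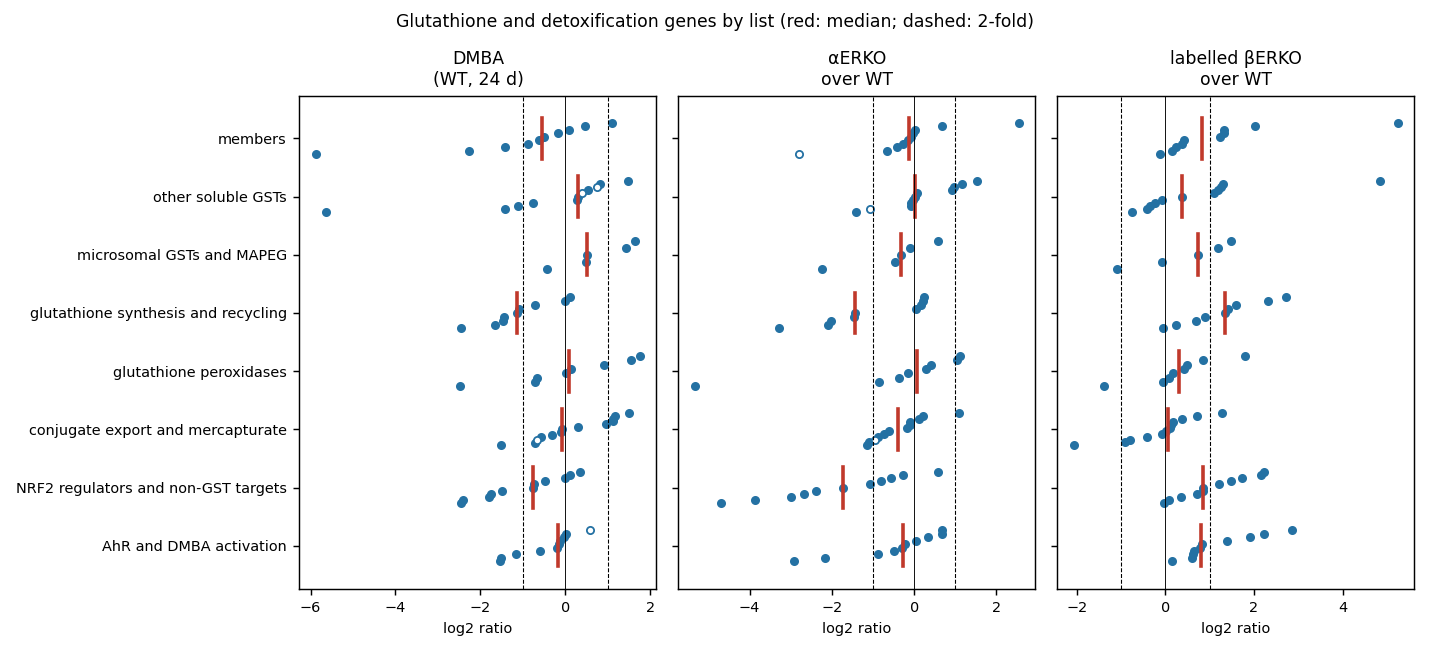
Log2 ratio of each gene (points, open where near background on 1 array) and the median (red bar) for the 10 members and 7 lists of glutathione and detoxification genes in 3 comparisons, with dashed lines at 2-fold. Glutathione synthesis and recycling has a median of -1.13 with DMBA and 1.35 on the array labelled βERKO over WT + DMBA.

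For the 3 members with the widest range among those good on all arrays, the genes with the most alike profile were sought among 4927 named genes outside the family that were good on all 7 arrays and ranged over 2-fold. Gstt1 was most alike to Etfbkmt (Pearson r 0.996), Klhl8 (0.992) and Il18 (0.985). Gsta4 was most alike to Bpifc (0.993), Slc6a9 (0.992) and Bnip5 (0.991), and Gsta3 to Jun (0.993), Pdk4 (0.977) and Ass1 (0.975). These are descriptions over 7 arrays that all genes share, and each is the top of 4927 values. With the 2 arrays farthest from each member's median left out, r over the other 5 ranged from 0.904 for Bnip5 to 0.970 for Etfbkmt.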

How the data were processed

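RNA of mammary glands was hybridized by the authors to 7 arrays, 1 per group. Per the file headers, the scanner software subtracted the median local background from a spot's mean signal to give the deposited intensity, and graded each spot. The deposited normalized intensity was checked to be that value times a constant per array. The build behind the probes was not given in the sources used here. The series table of processed values names no probe and was not used.

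Each array was scaled to a median of 1 over its 34967 gene probes, without the 320 negative and 300 positive control spots, and put on the log2 scale after values not above 0 were set to the smallest positive value. RefSeq's mouse gene table (GRCm38.p6) named 14760 of 15553 probes with a RefSeq accession, and the brightest probe stands for a gene. Probes entered a comparison where good on at least 1 of its 2 arrays, or of the study's 3 arrays for comparisons among those. Ratios over 2-fold were counted with no test, since 1 array per group leaves no replicate error, and their number limits the precision. A probe near background on 1 array has a bound only, taken against the higher of that array's lowest good value and the probe's own. For Gsta2 on the αERKO array the probe's own value, 0.394 against 0.362, was the higher. Its folds there are those of a dim reading and not lower bounds. Promoters came from RefSeq, and those of Gsta1 and Gsta2 were aligned with Biopython 1.88. Counting and the SD between probes were run on simulated data with changes far larger than the noise, which checks the code and not the counts reported here.

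The alternatives were the 75th percentile, quantile and cyclic loess normalization and normexp with an offset of 50 (limma 3.58.1, R 4.3.3), the deposited normalized values, other filters and floors, thresholds of 1.5-fold and 3-fold, and the mean of a gene's probes. The members, lists and comparisons were chosen with earlier results of these data known, and the WT comparator without DMBA was added after seeing the data. The genes named are all members, the other GSTs past the filter, up to 3 genes over 2-fold per list and comparison, and the 3 nearest profiles.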

Additional observations from a re-analysis of the deposited data

How the results depend on the processing

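No paired analysis was possible because each group has 1 array. Counts of members over 2-fold moved by more than 1.5 times in these cases. With a threshold of 3-fold, the count was 2 in place of 4 for DMBA and 2 in place of 5 for the array labelled βERKO over WT + DMBA. With 1.5-fold it was 2 for culture time, 1 for vitamin D5 and 2 for strain, in place of 0, and 4 in place of 2 for αERKO over WT + DMBA. For strain it was 1 under the 75th percentile, quantile normalization and normexp and 2 under cyclic loess. Under cyclic loess the array labelled βERKO had 3, with Gsta3 and Gstm1 at 0.98. With probes good on both arrays only, αERKO over WT + DMBA had 1, because Gsta2 dropped out. With the WT array without DMBA as comparator, αERKO had 6 and the array labelled βERKO had 0.

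No log2 ratio over 2-fold changed sign under any alternative scaling, background correction or floor. Of 70 member ratios, those that moved by more than the SD between probes numbered 13 under cyclic loess, 4 under quantile normalization, 4 under normexp and 0 under the others. Normexp, which compresses dim values, gave Gsta2 a log2 ratio of -1.32 for αERKO over WT + DMBA. Scaling to the 75th percentile moved the median of all probes from -0.15 to 0.07 for strain, from -0.17 to 0.01 between the knockout arrays, from -0.08 to 0.05 for αERKO over WT + DMBA and from 0.09 to -0.04 for vitamin D5.

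Without replicate arrays, no ratio has an error between mice or cultures. Gstt2, with an intensity near the local background, is the least precise member that was good on every array.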
